A study of Mus musculus with 9 samples.

Results

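Small nucleolar RNA (snoRNA) genes were followed through the isolation of mouse mammary epithelial cells. The members were all array rows with a single gene symbol that starts with Snora or Snord, which gave 56 rows for 51 genes among 19938 measured genes. Of these genes, 20 were H/ACA box genes (Snora) and 31 were C/D box genes (Snord). A gene with more than 1 row was represented by its brightest row on average. The members were chosen by name and not by their values, and none was removed by a filter on low values.

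RNA came from wild-type C3H female mice aged 8 to 9 weeks, and all 3 groups share release of the mammary cells from fat tissue with collagenase. Untrypsinized cells were taken at that point, trypsinized cells after a further digestion with trypsin, and mock sorted cells after trypsin and a mock run through a fluorescence-activated cell sorter. There were 3 Affymetrix whole-transcript arrays a group, called biological replicates in the labels. The labels do not tie the arrays to animals or say whether animals were pooled, so a p-value sets a difference against the spread of these samples alone, which may in part be technical. The submitters' design text compares untrypsinized with trypsinized and trypsinized with mock sorted cells. Levels are given as log2(intensity + 1), in which 1 unit is a doubling, and changes are differences of group means on that scale with the standard error (SE) of limma's fit to all genes.

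snoRNAs are short nuclear RNAs that guide chemical changes to other RNAs, mostly ribosomal RNA. C/D box snoRNAs pair with their target to place a methyl group on a ribose and work with fibrillarin, whereas H/ACA box snoRNAs place pseudouridine and work with dyskerin. A few, such as U8, U14, U17 and U22, are needed for cutting the ribosomal RNA precursor. In mammals most snoRNAs lie in introns of host genes, many of which code for ribosomal proteins or translation factors, and are trimmed out of the spliced intron; others have their own promoter. An array row that probes a snoRNA reads mature snoRNA, trimming intermediates and unspliced host transcript together, and these cannot be told apart here.

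Array medians differed by group. Median intensity over all rows was 345 to 375 on untrypsinized, 389 to 408 on trypsinized and 400 to 403 on mock sorted arrays. The untrypsinized arrays were thus the dimmest by this measure, and results under other scalings of the arrays are given below. Log2 levels correlated across genes at 0.993 to 0.997 within groups and, for untrypsinized with mock sorted arrays, at 0.981 to 0.986. All 8 measured luminal and all 9 basal mammary markers had mean levels above 8.20, the 95th percentile of the 1027 olfactory receptor genes, which mammary cells are not known to use and which served as a guide to dim rows. The deposited table gives no detection call. Because each row has its own probes, a level places a row among the arrays' bright or dim rows and does not rank amounts of RNA between genes.

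Most snoRNA rows lay above the dim range. Mean levels ran from 6.94 for Snord61 to 13.05 for Snora52, with a median of 9.77, against a median of 9.20 for all genes and 6.62 for olfactory receptor genes. Of the 51 genes, 42 lay above the olfactory line, 17 H/ACA and 25 C/D, and 32 lay above the median of all genes. The 9 genes at or below the line were Snora2b, Snora20, Snora41, Snord15a, Snord38a, Snord52, Snord61, Snord73a and Snord85, and their changes rest on dim rows. Snora52, in the ribosomal protein gene Rplp2, was the brightest row and differed little between groups, at 13.15, 13.08 and 13.04 in untrypsinized, 13.09, 13.05 and 13.07 in trypsinized and 13.02, 13.04 and 12.90 in mock sorted replicates 1 to 3. Snord57, a C/D guide in an intron of Nop56, itself a C/D core protein gene, followed at a mean of 12.88 and Snora7a at 12.84.

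After trypsin, snoRNA genes stood higher as a group. A gene was called changed at a Benjamini-Hochberg adjusted p of 0.05 or below over all genes and a fold of at least 1.5. By this rule 10 of 51 snoRNA genes were higher in trypsinized than in untrypsinized cells, where 0.532% of all genes were, and 0 were lower, where 0.933% of all genes were. The 10 were 7 of 31 C/D genes (Snord37, Snord118, Snord14e, Snord53, Snord58b, Snord95 and Snord16a) and 3 of 20 H/ACA genes (Snora69, Snora75 and Snora70). With no minimum fold, 26 were higher and 1, Snora44, was lower, against 13.9% and 11.5% of all genes. The difference was above 0 for 44 of 51 genes, and for 36 to 43 under 4 other scalings of the arrays. The median difference was 0.23, against 0.04 over all genes. All 3 trypsinized arrays exceeded all 3 untrypsinized arrays for 31 snoRNA genes and lay below them for 1, where 25% and 19.4% of all genes were so ordered. Under the 4 other scalings the median over all genes moved to as low as -0.09 and the snoRNA median to 0.09. With quantile normalization, over all rows or over the tested genes, the snoRNA median lay 0.20 above that of all genes. Scaling arrays to a common median shifts all genes of an array alike, so there the gap stays at 0.19 by construction. The 4 scalings gave 8 to 9 snoRNA genes higher, and 1 lower (Snora44) where arrays were scaled to the median of all rows or of the olfactory and vomeronasal receptor genes.

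**Figure D1:**
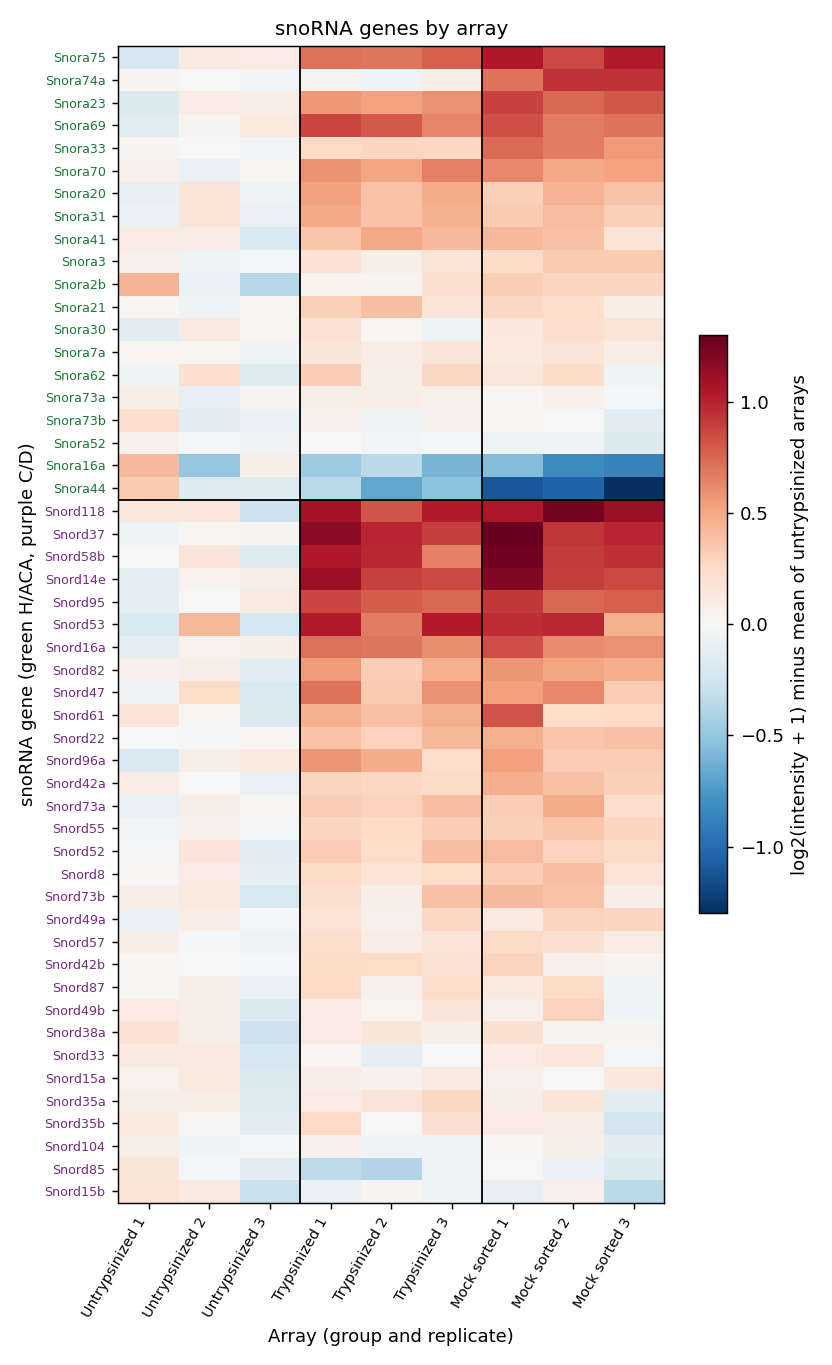
Log2 level of each of the 51 snoRNA genes (rows, H/ACA in green above, C/D in purple below) on each of the 9 arrays (columns), minus that gene's mean over the 3 untrypsinized arrays. Red is higher and blue lower. Within each class, genes are ordered by the difference of mock sorted from untrypsinized cells. The C/D genes called higher after trypsin form the red block at the top of their class. At the top of the H/ACA class, such genes are mixed with Snora74a, Snora23 and Snora33, which were not called after trypsin. Snora74a is red on mock sorted arrays alone, and Snora16a and Snora44 are blue.

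Among the C/D genes, the largest rise was that of Snord37, a guide in an intron of the translation elongation factor gene Eef2. Its level was 8.44, 8.52 and 8.53 on the untrypsinized arrays and 9.67, 9.49 and 9.40 on the trypsinized ones. The gene was 2.03-fold higher (log2 1.02, SE 0.10, adjusted p = 0.00067, limma), and the groups were 0.87 apart at their nearest arrays.

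Snord118, the U8 snoRNA that is needed for maturation of the large-subunit ribosomal RNAs and is transcribed from its own promoter, stood at 7.85, 7.86 and 7.43 before trypsin and at 8.79, 8.53 and 8.75 after it. It was 1.97-fold higher (log2 0.98, SE 0.12, adjusted p = 0.0017, limma). No untrypsinized array reached the lowest trypsinized one. Snord118 had 2 rows with identical values, which are counted once.

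Snord14e, a U14-type snoRNA in an intron of the heat shock cognate gene Hspa8, measured 9.92, 10.10 and 10.12 in untrypsinized and 11.16, 10.94 and 10.90 in trypsinized replicates. The rise was 1.93-fold (log2 0.95, SE 0.11, adjusted p = 0.0011, limma). The lowest trypsinized array lay 0.78 above the highest untrypsinized one. U14 pairs with the small-subunit ribosomal RNA and is needed for its cutting from the precursor.

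Snord53, in an intron of Wdr43, which codes for a ribosome biogenesis protein, varied more between replicates. Its untrypsinized levels were 11.05, 11.69 and 11.02 and its trypsinized levels 12.29, 11.93 and 12.28, so that replicate 2 was the highest of one group and the lowest of the other. The groups did not overlap and the gene was 1.88-fold higher (log2 0.91, SE 0.21, adjusted p = 0.017, limma). This call was lost when untrypsinized replicate 1 or 3, or trypsinized replicate 1 or 3, was left out, with adjusted p from 0.051 to 0.059.

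Snord95 and Snord96a both lie in introns of Rack1, which codes for a protein of the small ribosomal subunit. For Snord95 the untrypsinized arrays read 9.70, 9.84 and 9.94 and the trypsinized ones 10.69, 10.62 and 10.58, a 1.74-fold rise (log2 0.80, SE 0.07, adjusted p = 0.00045, limma). For Snord96a the arrays read 8.60, 8.86 and 8.92 before and 9.37, 9.27 and 9.03 after trypsin. That difference of 0.43 (SE 0.11, adjusted p = 0.027, limma) passed the test but not the 1.5-fold minimum. Neither gene's groups overlapped.

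The remaining C/D calls were Snord58b in the ribosomal protein gene Rpl17 and Snord16a in Rpl4. Snord58b went from 7.77 to 8.11 over the untrypsinized arrays to 8.59 to 8.98 over the trypsinized arrays, and was 1.86-fold higher (log2 0.89, SE 0.14, adjusted p = 0.0038, limma). Snord16a went from 9.70 to 9.90 to a range of 10.43 to 10.54, and was 1.60-fold higher (log2 0.67, SE 0.08, adjusted p = 0.0012, limma). After scaling every array to one median of all rows, Snord16a dropped below the 1.5-fold minimum, at 0.54.

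In the H/ACA class, Snora75, the U23 snoRNA in an intron of the nucleolin gene Ncl, stood at 8.16, 8.49 and 8.48 before trypsin and at 9.09, 9.07 and 9.16 after it. It was 1.66-fold higher (log2 0.73, SE 0.09, adjusted p = 0.0018, limma). Its neighbour in Ncl, the C/D gene Snord82, differed by 0.44 (SE 0.08, adjusted p = 0.0056, limma), short of the minimum fold. Nucleolin is an abundant nucleolar protein, and both snoRNAs of its gene had groups that did not overlap.

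Snora69 and Snora70 lie in the X-linked ribosomal protein genes Rpl39 and Rpl10. Snora69 read 9.01, 9.20 and 9.29 in untrypsinized and 10.03, 9.96 and 9.80 in trypsinized replicates, 1.70-fold higher (log2 0.77, SE 0.09, adjusted p = 0.0011, limma). Snora70 read 9.31, 9.15 and 9.26, then 9.83, 9.76 and 9.90 (log2 0.59, SE 0.06, adjusted p = 0.00072, limma). That value sat at the 1.5-fold minimum itself, just inside it, and Snora23 in the importin gene Ipo7 sat just outside it at 0.56 (SE 0.08, adjusted p = 0.0028, limma). Leaving out untrypsinized replicate 2 or trypsinized replicate 3 took Snora70 below the minimum, at 0.54 and 0.55, as did all 4 other scalings (0.45 to 0.57) and a pseudocount of 16 (0.57).

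**Figure D2:**
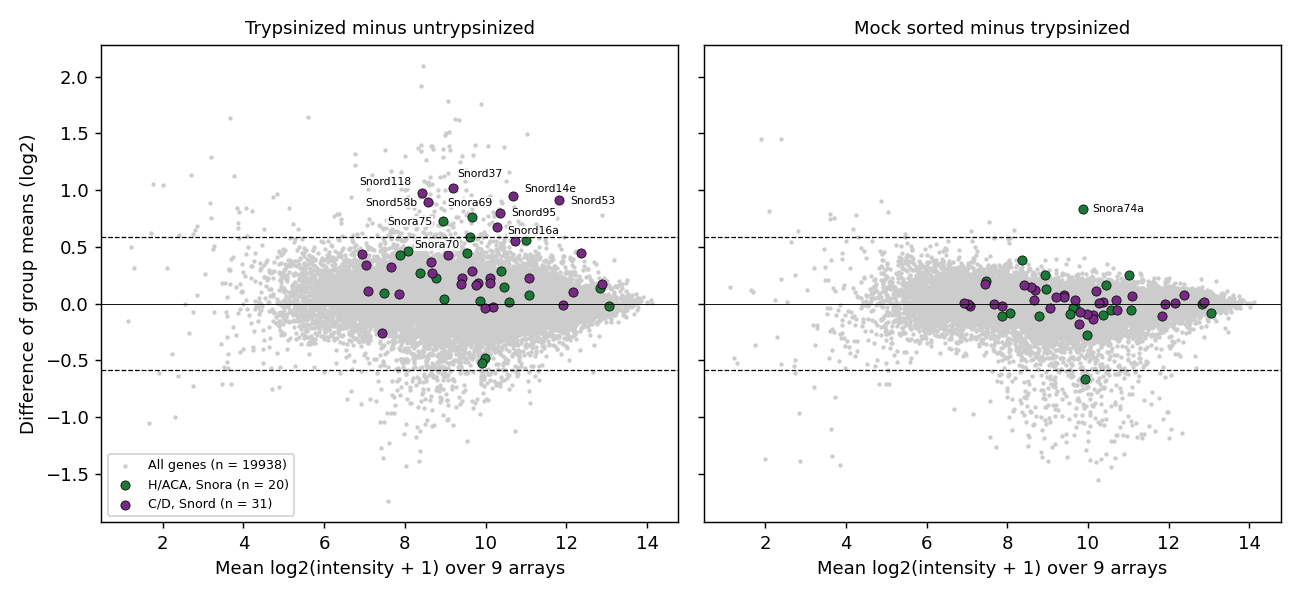
Difference of group means (log2, vertical) against the mean level over 9 arrays (log2(intensity + 1), horizontal) for all 19938 genes (grey) and for the 20 H/ACA (green) and 31 C/D (purple) snoRNA genes. Left, trypsinized minus untrypsinized; right, mock sorted minus trypsinized; dashed lines mark 1.5-fold and called snoRNA genes are named. On the left most snoRNA genes lie above 0 at every brightness, and on the right most lie near 0.

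Both classes held genes that were called higher. The median change after trypsin was 0.19 for the 20 H/ACA genes and 0.27 for the 31 C/D genes, a gap of -0.08 (H/ACA minus C/D). In the deposited scaling, 17 and 27 of them had a difference above 0. The medians were 0.24 and 0.27 without untrypsinized replicate 1, and 0.15 and 0.27 over the genes above the olfactory line. H/ACA changes ran from -0.52 for Snora44 to 0.77 for Snora69, and C/D changes from -0.26 for Snord85 to 1.02 for Snord37. The gap between the classes was not tested, since members of a class are not replicates.

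Genes called higher were found among dim and bright rows. In 3 sets of 17 genes by mean level, 3 of the dimmest (6.94 to 8.96), 3 of the middle (9.07 to 10.19) and 4 of the brightest (10.28 to 13.05) were called higher after trypsin. Over all genes in the same ranges, 0.533%, 0.591% and 0.445% were called higher. Median changes were 0.32, 0.18 and 0.23 from the dimmest to the brightest set of snoRNA genes, and 0.09, 0.02 and -0.01 for all genes in those ranges. Of the 7 H/ACA and 10 C/D genes in the brightest set, 0 and 4 were called higher, with medians of 0.14 and 0.50. Spearman's rho between change and mean level was -0.14 over the 51 genes, -0.37 in the H/ACA and -0.01 in the C/D class, and -0.20 over all genes. These are descriptions over genes that share the same arrays.

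A further 16 snoRNA genes were higher by the test alone, under the minimum fold, with differences from 0.14 for Snora7a to 0.56 for Snora23. They were 7 H/ACA and 9 C/D genes. Snora31, in the gene Tpt1 of the translationally controlled tumour protein, read 9.21, 9.45 and 9.19 before and 9.77, 9.65 and 9.75 after trypsin (log2 0.44, SE 0.07, adjusted p = 0.0048, limma). Snora20, in the chaperonin gene Tcp1, differed by 0.46 (SE 0.08, adjusted p = 0.0053) on a dim row, where its host differed by -0.15 (SE 0.04, adjusted p = 0.033, limma). In the noncoding host Gas5, Snord47 read 10.33, 10.62 and 10.18, then 11.09, 10.72 and 10.97, and its difference of 0.55 (SE 0.13, adjusted p = 0.021, limma) passed 1.5-fold without untrypsinized replicate 2 or trypsinized replicate 2, at 0.67 and 0.65. None of these 3 genes had groups that overlapped.

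The other 24 members did not pass the test after trypsin, with differences from -0.48 for Snora16a to 0.43 for Snord61, 18 of them above 0. On the dim rows the replicates could spread widely. Snora2b, in Kansl2, read 7.79, 7.27 and 6.97 in untrypsinized cells alone, a wider range than its difference of 0.10 (SE 0.17).

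Some snoRNAs with known processing or stress roles had smaller differences than Snord118 and Snord14e. Snora73a and Snora73b, the U17 genes in Snhg3 that are needed for small-subunit ribosomal RNA, differed by 0.08 and 0.02 (adjusted p = 0.29 and 0.91, limma). Snord22, the U22 gene in Snhg1, differed by 0.37 (SE 0.05, adjusted p = 0.0015, limma), with untrypsinized arrays at 8.38 to 8.42 and trypsinized arrays at 8.70 to 8.83. Snord33 and Snord35a, C/D genes of Rpl13a that are known for a role in the response to lipid and oxidative stress, differed by -0.03 and 0.18 (adjusted p = 0.82 and 0.20, limma). Snord104, one of the 2 members for which no host gene was found, differed by -0.01 at a mean level of 11.91 (adjusted p = 0.92, limma).

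Few snoRNA genes differed at the sorting step. Between mock sorted and trypsinized cells, 1 of 51 snoRNA genes was called higher, against 0.0251% of all genes, and 0 were called lower, against 1.17%. With no minimum fold the counts were 2 and 0, against 0.466% and 4.2%. At an unadjusted p under 0.05 (limma) they were 5 and 1, against 1153 and 2276 of all 19938 genes. The groups did not overlap for 7 higher and 3 lower snoRNA genes, against 9.74% and 14.3% of all genes. The median difference was -0.0023, and 45 of 51 genes lay within 0.2 of 0. C/D genes ran from -0.18 to 0.17, with 0 called (0 also at an unadjusted p under 0.05, limma), and H/ACA genes from -0.66 to 0.84.

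The called gene was Snora74a, the U19 snoRNA in the noncoding host Snhg4. Its level was 9.61, 9.58 and 9.54 in untrypsinized, 9.62, 9.52 and 9.66 in trypsinized and 10.28, 10.51 and 10.51 in mock sorted replicates. It was 1.79-fold higher in mock sorted than in trypsinized cells (log2 0.84, SE 0.07, adjusted p = 0.00032, limma), with no overlap, and the trypsinized and untrypsinized groups overlapped (difference 0.03, SE 0.07, adjusted p = 0.82). The call held with each array left out in turn. Of all genes above the olfactory line, 1 was called higher in this comparison, 0.00737% of 13576, and it was Snora74a.

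Snora33, in the ribosomal protein gene Rps12, was higher at each step by the test alone. It read 8.09, 8.05 and 8.02 in untrypsinized, 8.32, 8.34 and 8.32 in trypsinized and 8.79, 8.73 and 8.61 in mock sorted replicates. Its difference was 0.27 at the trypsin step (SE 0.05, adjusted p = 0.0066, limma) and 0.38 at the sorting step (SE 0.05, adjusted p = 0.0027, limma), both under the minimum fold. The 3 groups lay in separate ranges.

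Snora44, an H/ACA gene in the noncoding host Snhg12, had falling levels. It read 10.83, 10.32 and 10.32 in untrypsinized, 10.14, 9.81 and 9.96 in trypsinized and 9.38, 9.45 and 9.09 in mock sorted replicates, and no groups overlapped. The mock sorted group was 1.58-fold below the trypsinized one (log2 -0.66, SE 0.16, adjusted p = 0.056, limma), which missed the threshold. Same-numbered mock sorted and trypsinized arrays varied together, which this fit did not use. With a block for replicate number the adjusted p was 0.031 over all 9 arrays and 0.065 over the 6 arrays of these groups (limma). With these groups alone and no block, Snora44 was called lower. The call thus changed both with the block and with the arrays in the fit. Without untrypsinized replicate 1, which reads 0.51 above the others, the adjusted p was 0.017.

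**Figure D3:**
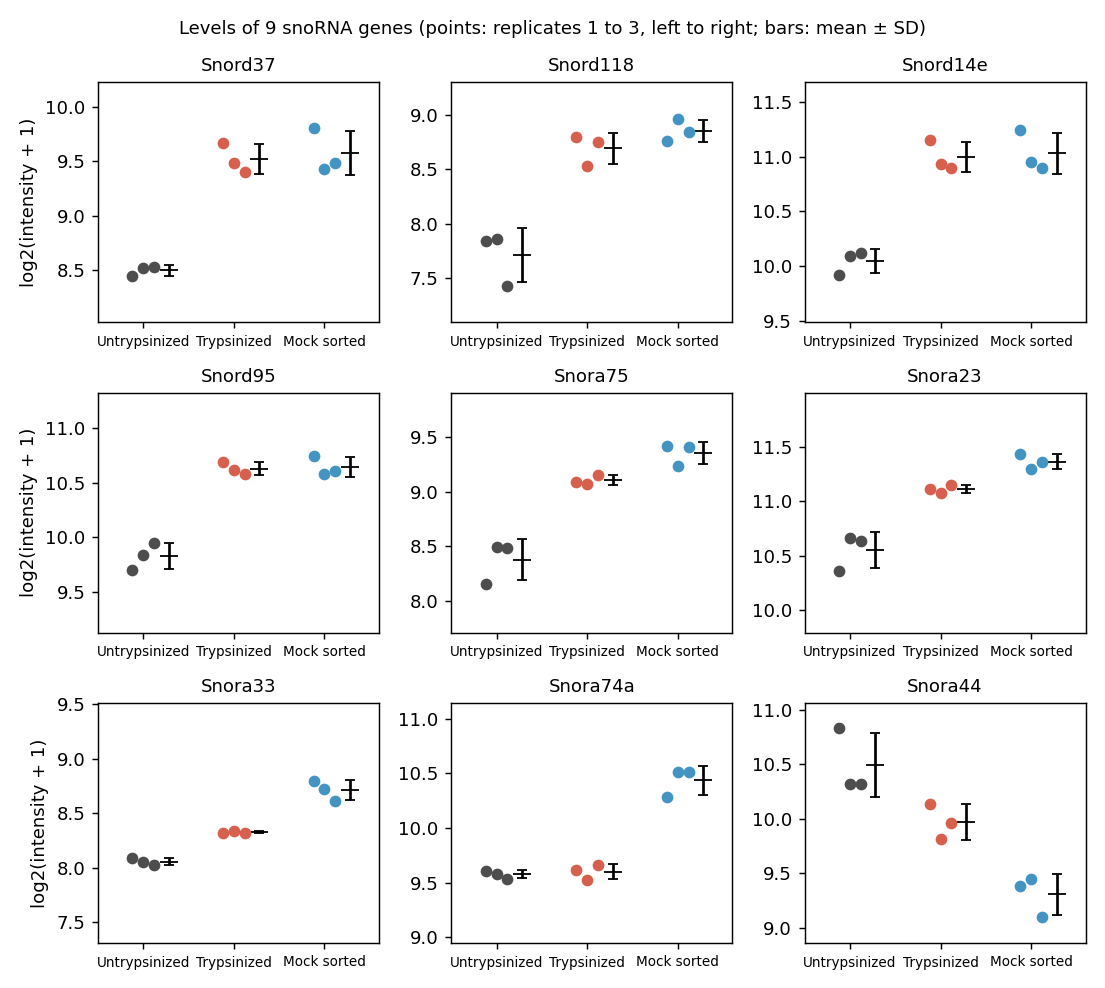
Level (log2(intensity + 1), vertical) of 9 snoRNA genes in the 3 groups. Points are replicates 1 to 3 from left to right, and bars show the mean ± SD (n = 3); each vertical axis has its own range and does not start at 0. In the top row and for Snord95 the trypsinized and mock sorted points lie at one height above the untrypsinized ones, Snora33 rises in 2 steps, Snora74a is high in mock sorted cells alone and Snora44 descends.

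Against untrypsinized cells, mock sorted cells showed the sum of both steps. This comparison shares the untrypsinized arrays with that of trypsinized cells, so its calls are not independent of those above. Of 51 snoRNA genes, 12 were called higher, against 1.08% of all genes, and 2 were called lower, against 3.4%. The 12 were 7 C/D and 5 H/ACA genes, and both lower ones were H/ACA. The median difference was 0.31 over the 51 genes, 0.30 for H/ACA and 0.32 for C/D, against 0.05 over all genes. The H/ACA median was the higher one without untrypsinized replicate 1 (0.32 and 0.30), without mock sorted replicate 2 (0.29 and 0.27) and with array weights (0.29 and 0.25). With no minimum fold, 29 were higher and 2 lower, against 21% and 18% of all genes. The groups did not overlap for 33 higher and 3 lower ones, against 28.7% and 23.4%.

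Of the 14 genes called here, 9 were also called after trypsin. Snord118 stood at 8.76, 8.96 and 8.84 in mock sorted replicates, 2.20-fold above untrypsinized (log2 1.14, SE 0.12, adjusted p = 0.00026, limma). Snord37 read 9.80, 9.43 and 9.49 (log2 1.07, SE 0.10, adjusted p = 0.00013, limma) and Snord14e 11.25, 10.95 and 10.90 (log2 0.99, SE 0.11, adjusted p = 0.00026, limma). Replicate 1 was the highest mock sorted array for both, as it was the highest trypsinized one. Among the H/ACA genes, Snora75 read 9.42, 9.24 and 9.41, above all its trypsinized values, and was 1.97-fold above untrypsinized (log2 0.98, SE 0.09, adjusted p = 0.00013, limma). Its step from trypsinized to mock sorted cells was 0.25 (SE 0.09, adjusted p = 0.21, limma).

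The 5 genes called against untrypsinized cells after mock sorting and not after trypsin were all H/ACA genes. Snora23 read 10.36, 10.66 and 10.63 in untrypsinized and 11.43, 11.30 and 11.36 in mock sorted replicates, 1.75-fold higher (log2 0.81, SE 0.08, adjusted p = 0.00015, limma). Snora74a and Snora33 were higher by 0.86 (SE 0.07, adjusted p = 5e-05) and 0.66 (SE 0.05, adjusted p = 3.1e-05). Under all 4 other scalings of the arrays Snora33 fell short of the minimum fold here, at 0.49 to 0.58. Snora44 was 2.27-fold lower (log2 -1.18, SE 0.16, adjusted p = 0.00077, limma), and this call held with each array left out.

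Snora16a, the other snoRNA of Snhg12 here, read 10.81, 9.89 and 10.46 in untrypsinized, 9.92, 10.03 and 9.78 in trypsinized and 9.82, 9.56 and 9.52 in mock sorted replicates. Mock sorted cells were 1.68-fold lower than untrypsinized ones (log2 -0.75, SE 0.21, adjusted p = 0.022, limma). The untrypsinized replicates spread over 0.92, and the call was lost without untrypsinized replicate 1 or 3 or mock sorted replicate 2 or 3 (adjusted p from 0.053 to 0.069). Both snoRNA genes of Snhg12 thus had lower levels, and Snhg12 itself had no single-gene row.

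Small RNA genes, pseudogenes and genes named Gm or LOC with a number were left out of the search for hosts. Host genes were taken as the other RefSeq genes whose interval holds the snoRNA gene. Of 51 members, 49 lie in such a gene, in 39 hosts, of which 10 hold 2 members each. A host with a row of its own was measured for 29 members (25 hosts). One of these, Mcmdc2, overlaps Snord87, whose known host Snhg6 has no row of its own here. The rows of Mcmdc2 and of Rplp2, host of Snora52, were dim, at mean levels of 7.29 and 6.99 against the olfactory line of 8.20. Both are included in the host counts that follow. After trypsin, 0 of the 25 hosts were called changed in either direction, against 0.532% of all genes called higher and 0.933% lower. With no minimum fold 1 host was higher (Srcap) and 4 were lower, against 13.9% and 11.5% of all genes. Host differences ran from -0.23 to 0.26 with a median of 0.00049. The snoRNA's difference exceeded that of its host in 28 of 29 pairs, by a median of 0.39.

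**Figure D4:**
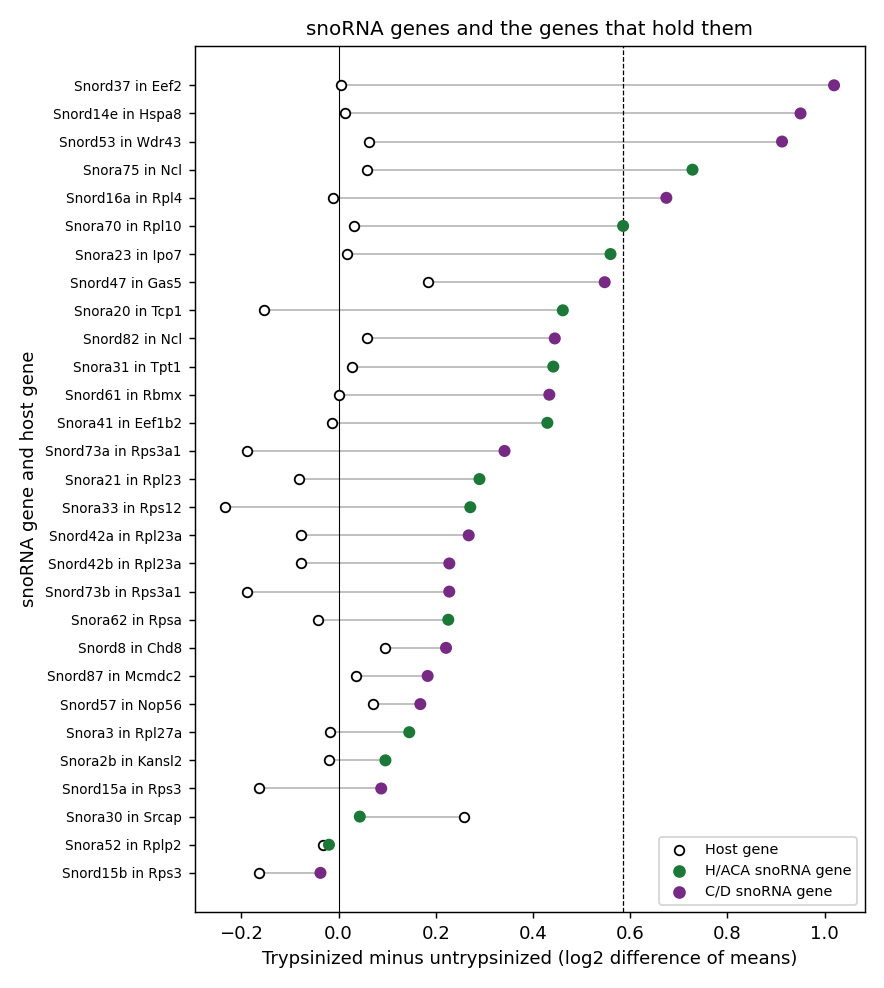
Trypsinized minus untrypsinized difference (log2, horizontal) of 29 snoRNA genes (filled; green H/ACA, purple C/D) and of the gene that holds each (open circles). The solid line is 0 and the dashed line 1.5-fold. Hosts lie between -0.23 and 0.26, while 6 snoRNA genes reach or pass the dashed line.

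For the 6 snoRNA genes called higher with a measured host, 0 hosts were called. Eef2, which holds Snord37, read 13.77, 13.72 and 13.72 before and 13.76, 13.73 and 13.73 after trypsin, a difference of 0.0043 (SE 0.03). Hspa8, which holds Snord14e, differed by 0.01 (SE 0.04), and Rpl4, which holds Snord16a, by -0.01 (SE 0.03). Ncl differed by 0.06 (SE 0.04) and Wdr43 by 0.06 (SE 0.04). Rps12 had a difference of -0.23 (SE 0.06) while its snoRNA gene Snora33 differed by 0.27. The rows of Eef2, Hspa8 and Rpl4 lay at percentiles 99.9, 99.9 and 99.6 of mean level over all genes, and the part of this brightness in the result was not tested.

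Members in ribosomal protein genes were 21, of which 4 were called higher after trypsin with a median difference of 0.23. Members in noncoding hosts were 10, of which 0 were called (limma) with a median of 0.09 and a range from -0.52 to 0.55. Members in other hosts were 18, of which 5 were called higher with a median of 0.44. Over all genes, 0.532% were called higher. Snord87 was counted with the other hosts through its overlap with Mcmdc2, and not by its known host Snhg6. It differed by 0.18 and was not called. Genes that share a host could differ in size, as did Snord95 and Snord96a in Rack1 (0.80 and 0.43), or lie close, as did Snora73a and Snora73b in Snhg3 and Snora16a and Snora44 in Snhg12 (-0.48 and -0.52).

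Many snoRNA host genes belong to the terminal oligopyrimidine (TOP) class, whose transcripts begin with a run of C and T bases that ties their translation to growth signals. The start regions of 4 hosts discussed above are printed to show where runs of C and T lie near the start. Each line gives 60 bases before and 20 after the RefSeq start on the gene's strand (GRCm38.p6), and capitals mark the longest run of at least 8 bases that are all C or T within 20 bases of the start.
Rack1, host of Snord95 and Snord96a, chr11:48800300-48800379, plus strand: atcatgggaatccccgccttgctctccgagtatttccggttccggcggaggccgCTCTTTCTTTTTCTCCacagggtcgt
Rpl4, host of Snord16a, chr9:64173327-64173406, plus strand: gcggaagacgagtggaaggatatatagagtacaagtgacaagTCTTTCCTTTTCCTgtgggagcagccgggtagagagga
Snhg12, host of Snora16a and Snora44, chr4:132308618-132308697, plus strand: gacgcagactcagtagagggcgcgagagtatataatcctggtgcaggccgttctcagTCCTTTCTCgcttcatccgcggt
Eef2, host of Snord37, chr10:81176571-81176650, plus strand: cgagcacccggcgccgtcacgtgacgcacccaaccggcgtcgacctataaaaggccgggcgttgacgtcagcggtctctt

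The runs are 16 bases in Rack1, 14 in Rpl4 and 9 in Snhg12. Those of Rack1 and Snhg12 begin at -6 and -3 from the RefSeq start and cross it. The Rpl4 run begins at -18 and ends before the start, so it lies outside the annotated transcript. The Eef2 window holds none of 8 or more, though it ends inside a run of 6 whose full length was not measured. The start windows of Wdr43 and Ncl, hosts of Snord53 and Snora75 that are not printed, hold none of 8 or more either. A run of 8 or more was found in 11 of 30 hosts with a window (36.7%) and in 4965 of 27025 genes (18.4%), searched on the gene's strand alone. These counts include runs that lie wholly before the start. A match is a description of letters and not of a start used in these cells. The snoRNA sequences themselves were not used here.

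No gene for a snoRNA core protein was called changed. Of the C/D core proteins (Fbl, Nop56, Nop58 and Snu13), 0 of 4 were called in any of the 3 comparisons (limma), and the list's median after trypsin was -0.06. Of the H/ACA core proteins (Dkc1, Gar1, Nhp2 and Nop10), 0 of 4 were called and the median was -0.14. With no minimum fold Dkc1, the pseudouridine synthase dyskerin, differed by -0.14 (SE 0.04, adjusted p = 0.044, limma) and Nop10 by -0.14 (SE 0.04, adjusted p = 0.032, limma). The methyltransferase gene Fbl differed by -0.14 (SE 0.05, adjusted p = 0.056, limma). No call was made after trypsin among 12 assembly factors, 26 proteins of the U3 particle and small-subunit processome, or 21 trimming and exosome factors. At no minimum fold these lists had 2 higher and 2 lower, 7 higher and 4 lower, and 1 higher and 5 lower genes, where 13.9% of all genes were higher and 11.5% lower.

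Of 13 measured RNA polymerase I genes, 1 was called higher after trypsin, against 0.532% of all genes. It was Taf1d, a subunit of the promoter selectivity factor, whose gene also holds small RNA genes in its introns (log2 0.59, SE 0.07, adjusted p = 0.0012, limma). Of 7 measured genes on the list of noncoding hosts, 0 were called after trypsin. With no minimum fold 4 were higher, against 13.9% of all genes, among them Snhg16 at 0.44 (SE 0.06, adjusted p = 0.0017, limma). That list contains Rmrp, which is not a host gene.

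Levels of cell type markers differed between the groups, and in bulk samples fewer cells of a type and less RNA per cell cannot be told apart. Of 10 endothelial markers, 3 were called lower after trypsin and 10 between trypsinized and mock sorted cells, and their summed intensity was 29687 to 34224 in untrypsinized, 23057 to 23469 in trypsinized and 10242 to 12486 in mock sorted arrays. Of 6 Schwann cell markers, 4 were called lower after trypsin (8259 to 8847 against 5614 to 5948) and 4 in the mock sort (4314 to 4607). With no minimum fold, 5 were lower after trypsin and 1 was higher, at 0.25, against 11.5% and 13.9% of all genes. Lymphocyte markers had a median difference of 0.97 after trypsin with 0 of 8 called (limma), and summed intensities of 3383 to 4075 before and 5709 to 14071 after it, where the top value was trypsinized replicate 1. Luminal markers had 0 of 8 called in any comparison (63652 to 65513, 67304 to 67924 and 69700 to 70104). Of 9 basal markers, 0 were called after trypsin and 0 in the mock sort (limma). In mock sorted against untrypsinized cells 1 basal marker was called lower, against 3.4% of all genes. With no minimum fold 6 were lower in that comparison, against 18% of all genes. The part of these shifts in the snoRNA results was not tested. Without trypsinized and mock sorted replicate 1, 9 snoRNA genes were called higher after trypsin, with Snord53 lost.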

How the data were processed

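The deposited table gives 1 intensity per row and array, on a linear scale, as the authors processed it. How background, probe summary and scaling between arrays were handled is not stated in the labels, and the submitters' processing notes name limma. The platform annotation gave 1 gene symbol for 21789 rows, several for 1621 and none for 12102. The deposited intensities were taken to log2 after adding 1, which understates changes of dim genes. A group-means model of 19938 genes on all 9 arrays was fitted with limma 3.58.1 (R 4.3.3), moderated by empirical Bayes, and p-values were adjusted over all genes by the Benjamini-Hochberg method. The 0.05 and 1.5-fold limits follow the submitters' design text, in which neither the adjustment of p nor a comparison of mock sorted with untrypsinized cells is mentioned.

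The members and the gene lists were chosen with earlier results of these data known. Genes named are drawn from those called in a comparison with groups that do not overlap (up to 12 each way), the 6 brightest of each class, snoRNA genes of known role, their hosts, and called or lowest-p members of the lists. Snora2b, Snora20, Snora31, Snora41, Snord15a, Snord22, Snord38a, Snord52, Snord61, Snord73a, Snord85, Snord87 and Snord96a were named after their values were seen. Host genes come from the GRCm38.p6 RefSeq table by interval alone, since it gives no strand, and as the deposited table names no build, no coordinates of members are given.

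On simulated data over 19938 genes, the trypsinized against untrypsinized fit recovered 95% of 100 genes changed 2-fold and 46% of 100 changed 1.5-fold, with 0 false calls. The mock sorted against trypsinized fit recovered 92% and 54%, with 1 false call. The simulated 1.5-fold change equals the minimum fold of a call, so estimates fall on either side of that minimum. The 1.5-fold shares therefore do not measure the power of the test. Simulated arrays were drawn independently, without the correlations given next. Deviations from group means correlated at 0.53, 0.29 and 0.29 for same-numbered mock sorted and trypsinized arrays. They correlated at 0.11, 0.04 and -0.04 for trypsinized and untrypsinized arrays and at 0.32, 0.18 and 0.06 for mock sorted and untrypsinized arrays. The main fit paired no arrays. Same-numbered arrays were tied only in the alternatives with a replicate block. Alternatives changed the threshold, scaling, pseudocount, dim-gene filter, choice of row, variance model, array weights, arrays fitted, replicate block and each array in turn. A block of 6 arrays and the removal of both replicate-1 arrays were added after seeing the data.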

Additional observations from a re-analysis of the deposited data

How the results depend on the processing

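The number of arrays limits the precision, and no replicate beyond 3 per group checks any call. Called snoRNA genes kept their direction under the alternatives in which they were tested. With no minimum fold, 26 were higher and 1 lower after trypsin, 2 higher in the mock sort, and 29 higher in mock sorted against untrypsinized cells. With tests limited to genes above the median of all genes (32 snoRNA genes), 6 were higher after trypsin and 7 in mock sorted against untrypsinized cells, because Snora33, Snora75, Snord37, Snord58b and Snord118 were not tested there. After trypsin 1 gene, Snora44, was lower where arrays were scaled to the median of all rows or of the olfactory and vomeronasal receptor genes. Snora44 was also the 1 gene lower in the mock sort with an unadjusted p, with the olfactory and vomeronasal scaling, with genes above the median or above the olfactory line, with array weights, with the compared groups alone, and with the replicate block over all 9 arrays. That block changed no other snoRNA call in any comparison, and the block over 6 arrays changed none in the mock sort. The H/ACA minus C/D gap in medians for mock sorted against untrypsinized cells was -0.01, and -0.10 with quantile normalization over the tested genes and -0.13 above the olfactory line. Its sign turned without untrypsinized replicate 1, without mock sorted replicate 2 and with array weights; the cause was not tested.

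With each array left out in turn, 8 to 11 snoRNA genes were higher and 0 to 1 lower after trypsin, 1 was higher and 0 to 1 lower in the mock sort, and 11 to 13 were higher and 1 to 2 lower in mock sorted against untrypsinized cells. Snord53, Snora70 and Snora16a were the called genes whose call depended on 1 array, and Snora23 and Snord47 passed the minimum fold after trypsin without untrypsinized replicate 2. Snora70 after trypsin and Snora33 against untrypsinized cells were below 1.5-fold under all 4 other scalings, and Snord16a and Snora69 under some of them, with adjusted p at most 0.0041.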

Other observations

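Other small RNA genes gave these values after trypsin. Over all genes, 0.532% were called higher and 0.933% lower. Of 291 microRNA genes, 13 were called higher (4.47%) and 1 lower, with a median difference of 0.16. The 3 small Cajal body RNA genes, relatives of snoRNAs that guide changes to spliceosomal RNA, had differences from 0.21 to 0.47 with 0 called (limma; 2 higher with an unadjusted p under 0.05). Of 5 U small nuclear RNA genes, 0 were called (limma; 2 higher with an unadjusted p under 0.05), with a range from -0.44 to 0.56. Of 1027 olfactory receptor genes, 10 were called higher (0.974%), with a median of 0.11.

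A further 41 rows list a Snora or Snord symbol beside other genes and were kept out of the members. Of these, 7 were higher after trypsin, 0 in the mock sort (limma) and 4 in mock sorted against untrypsinized cells, where 1227, 25 and 2234 of all 35512 rows were. The 35 of them that also list a gene that is neither snoRNA nor microRNA had a median difference of 0.54 after trypsin and held all 7, and the 6 that list small RNA genes alone had a median of -0.06. The 41 and the 35 rows had the same medians in each comparison (0.54, -0.05 and 0.49). Some rows may thus repeat the same values, which was not checked, so they may not be separate measurements.

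Rows with no listed gene held 1068 of the 1227 rows called higher after trypsin, from 12102 of 35512 rows, and they stay unnamed here.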
